A study of Homo sapiens with 4 samples.

Results

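KCP, BMP2, BMP4, BAMBI, SMAD6, SMAD7, SMAD9, ID1, ID2 and ID3 are genes of the bone morphogenetic protein (BMP) pathway, and their mRNA levels were followed after knockdown of the transcription factor TFE3. They were taken by symbol from a table of read counts for 61533 gene identifiers, where all 10 had 1 row each. The set was put together with the knockdown comparison already known, in which KCP was among the largest decreases and ID1 among the largest increases. The knockdown values of the 10 genes are therefore given as a description, without p-values, and where a call from the fit over all genes is mentioned for one of them it supports nothing. Other genes of the pathway were tested as part of the fit over all genes.

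Caki-1, a long-established cell line from a human kidney carcinoma, was transduced with lentivirus carrying either short hairpin RNA against TFE3 (shTFE3, genotype label TFE3-KD) or a control sequence (shControl, genotype label WT). Each group had 2 libraries, 4 in all. Both groups were replated 24 hours after infection, received puromycin at 1 µg/ml 12 hours later, and were harvested after 3 days of selection, so that infection and drug were shared by the controls. The labels name neither the hairpin sequences nor their number, and do not say whether replicates came from separate infections. The p-values below then measure the spread between these libraries, which may be technical.

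BMPs are secreted ligands that bind paired serine/threonine kinase receptors. The receptors phosphorylate SMAD1, SMAD5 and SMAD9, which enter the nucleus with SMAD4 and switch on target genes, among them the ID genes and the inhibitory SMADs that feed back on the pathway. ID proteins lack a DNA-binding region and hold helix-loop-helix factors away from DNA. KCP (kielin/chordin-like protein) is a secreted protein with cysteine-rich repeats of the chordin type. Unlike chordin, it is known to enhance BMP signalling and to dampen TGF-beta signalling, and it has been studied in kidney injury.

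The upstream sequences of the genes with the largest decrease and the largest increase of the set are shown first, as the stretches just before the annotated start sites of these genes. The sequences are RefSeq promoter windows on GRCh38.p14, which run from 250 bases before to 50 bases after a start site. Windows were found for 9 of the 10 genes, 13 in all, and not for BMP2. The 250 bases before the start site of KCP (chr7:128910710-128910959, minus strand) and of ID1 (chr20:31605039-31605288, plus strand) are given 5′ to 3′, all in lower case because none of the searched motifs was in them.
KCP: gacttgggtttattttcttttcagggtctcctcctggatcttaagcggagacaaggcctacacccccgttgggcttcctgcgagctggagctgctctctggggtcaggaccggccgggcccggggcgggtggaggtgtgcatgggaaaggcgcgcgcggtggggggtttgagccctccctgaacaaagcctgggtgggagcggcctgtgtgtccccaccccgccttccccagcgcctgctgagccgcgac
ID1: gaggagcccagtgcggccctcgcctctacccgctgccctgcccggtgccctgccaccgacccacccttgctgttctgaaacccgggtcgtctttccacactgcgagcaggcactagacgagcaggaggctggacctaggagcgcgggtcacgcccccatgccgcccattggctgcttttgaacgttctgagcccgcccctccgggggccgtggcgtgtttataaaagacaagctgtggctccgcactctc

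All 3 motifs searched are palindromes, so that both strands were read at once, and no match of one overlapped a match of another. CACGTG is the E-box bound by TFE3 and many other helix-loop-helix factors, and 7.26% of all 35116 RefSeq windows of 300 bases held it. GGCGCC, a GC-rich element of BMP-responsive SMADs, was in 19.2% of windows, and GTCTAGAC, the palindromic SMAD element, in 0.202%. CACGTG was found in the SMAD9 window and in 1 of 3 BMP4 windows, GGCGCC in BAMBI and in another BMP4 window, and GTCTAGAC in SMAD6 alone among the 9 genes. The matches are letters in a window, not binding sites, and a window without a match says only that these letters are not in it. Stretches of 50 bases around the matches of 3 genes are shown with the motif in capitals: SMAD6 at chr15:66702186-66702235 (plus strand), SMAD9 at chr13:36920389-36920438 (minus strand) and BAMBI at chr10:28677301-28677350 (plus strand).
SMAD6: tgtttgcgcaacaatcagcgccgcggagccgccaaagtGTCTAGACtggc
SMAD9: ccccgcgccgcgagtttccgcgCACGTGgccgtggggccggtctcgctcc
BAMBI: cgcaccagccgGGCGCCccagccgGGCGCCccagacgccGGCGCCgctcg

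Library totals lay between 17270180 and 17742519 counts. Levels are given in CPM, counts scaled to a common library total with TMM factors. The limit of detection, which a detected gene had to exceed, was 3 counts. It came to 0.167 to 0.176 CPM, a limit for counting error only. TFE3 itself was at 131 and 128 CPM in shControl against 70.1 and 66.9 CPM in shTFE3, in the direction of the labels. A log2 fold change is shTFE3 over shControl, with its standard error (SE) from edgeR, and a gene was called when edgeR's quasi-likelihood test gave a Benjamini-Hochberg adjusted p under 0.05 over 15950 genes. PAX8, a renal lineage factor, lay between 424 and 465 CPM, while PAX2 and CA9, also on the list of renal markers, had 0 counts in every library. Of 15 markers of leukocytes, endothelium and fibroblasts, 5 exceeded 3 counts in any library and 4 were at 0 in every library, CDH5, CD3E and LUM among them. These 15 summed to 22.9 and 23.2 CPM in shControl against 23.9 and 23.1 CPM in shTFE3. SLC36A1, a lysosomal amino acid transporter, fell by 0.64 on the log2 scale (edgeR SE 0.095, adjusted p 1.8e-05, or 0.0508 when genes with low counts were kept).

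**Figure D1:**
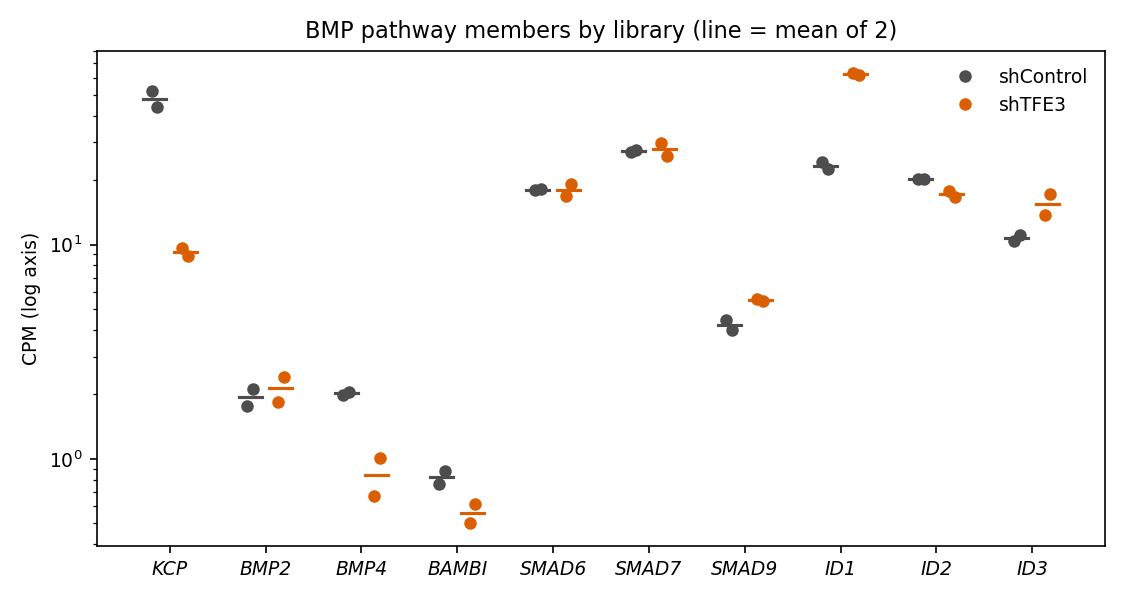
Levels of the 10 genes in CPM on a log axis, with 1 point per library and a line at the mean of the 2 libraries of each group. KCP and BMP4 lie lower in shTFE3 and ID1 and ID3 higher, while the groups of BMP2, SMAD6 and SMAD7 overlap.

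The secreted modulator KCP was lower after the knockdown and the target gene ID1 higher, while the inhibitory SMADs SMAD6 and SMAD7 hardly differed. KCP was at 48.0 ± 5.89 CPM in shControl against 9.25 ± 0.528 CPM in shTFE3, and ID1 at 23.3 ± 1.31 and 62.6 ± 0.666 CPM (SD, n = 2). The groups of 7 of the 10 genes did not overlap in CPM, and 60.3% of all tested genes had groups that did not overlap. In the fit over all genes ID1 and ID3 were called higher and KCP and BMP4 lower, that is 2 of 10 in each direction. Of all tested genes 10.3% were called higher and 12.9% lower, 23.3% together. Nothing is read from these counts, since the genes were chosen from this comparison. The median log2 fold change was 0.015 for the 10 genes and 0.0015 for all genes tested.

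KCP (ENSG00000135253, chromosome 7, 128862451 to 128910719, minus strand, GENCODE 29 on GRCh38) had 890 and 747 counts in shControl against 173 and 158 counts in shTFE3. Its levels were 52.2 and 43.8 CPM in shControl against 9.63 and 8.88 CPM in shTFE3. Both knockdown libraries lay far below both controls, and the controls were farther apart from each other than the knockdown libraries were. The log2 fold change was -2.37 (SE 0.10), a level 5.18-fold lower, which ranked 8 from the lowest among 15950 genes. In the authors' deposited table KCP had a log2 fold change of -2.37 with an SE of 0.15. With 1 library left out the value lay between -2.50 and -2.25.

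The KCP gene lies across other genes, and the strand setting of the counting is not given in the sources used here, so reads within exon bases shared by genes on opposite strands cannot be told apart. ATP6V1F, a subunit of the lysosomal proton pump on the opposite strand, shares 187 exon bases with KCP. It had 1850 and 1955 counts in shControl against 1750 and 1804 in shTFE3, a log2 fold change of -0.17 (edgeR SE 0.062, adjusted p 0.0514, and 0.0493 with upper-quartile factors). ATP6V1FNB lies within KCP on the opposite strand with no exon base in common. It had 44 and 53 counts in shControl against 22 and 16 in shTFE3, a log2 fold change of -1.41 (edgeR SE 0.27, adjusted p 0.000333), and the adjusted p was 0.0706 without shTFE3 replicate 2 and 0.0807 with no filter. Reads of KCP as a source of this difference were not tested. FLNC-AS1, on the same strand as KCP, had at most 2 counts in any library.

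By the distance of centred log2 CPM over the 4 libraries, the genes most like KCP among 10913 with a mean of at least 100 counts were TRPM8 (0.412), FGFR2 (0.445) and CLSTN2 (0.446). TRPM8 encodes a cold-sensitive cation channel, FGFR2 a receptor tyrosine kinase and CLSTN2 a calsyntenin of the cell surface. TRPM8 went from 45.6 ± 0.332 to 11.2 ± 0.593 CPM, FGFR2 from 14.7 ± 1.81 to 3.72 ± 0.725 CPM and CLSTN2 from 437 ± 4.42 to 113 ± 5.49 CPM (SD, n = 2). Their log2 fold changes were -2.02, -1.98 and -1.95, given without a test because likeness to KCP chose them. With 4 libraries in 2 groups the measure mostly ranks genes by the size of the group difference.

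Among 8 tested genes listed beside KCP as BMP modulators or chordin-cutting proteases, 6 fell and 0 rose, with a median log2 fold change of -0.19. This was 75% called lower, where 12.9% of all tested genes were called lower and 10.3% higher. This list and those below were chosen with earlier results known. At an unadjusted p under 0.05, SOSTDC1 alone of the 8 was higher, at a log2 fold change of 0.75 (edgeR SE 0.36, adjusted p 0.137). FSTL3, a follistatin-like protein that binds activins, fell from 98.7 ± 5.30 to 54.3 ± 2.42 CPM (SD, n = 2), which is a log2 fold change of -0.86 (edgeR SE 0.068, adjusted p 7.58e-10). CRIM1, a transmembrane protein with chordin-type repeats like those of KCP, fell from 459 ± 13.9 to 298 ± 9.73 CPM (SD, n = 2), by 0.63 on the log2 scale (edgeR SE 0.055, adjusted p 4.11e-09). These 2 stayed called in every fit with 1 library left out, by DESeq2 and with no filter on low counts.

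The other 4 falls among the modulators were small. FSTL1, a secreted follistatin-like glycoprotein, had a log2 fold change of -0.25 (edgeR adjusted p 0.00333, 0.106 without shTFE3 replicate 1 and 0.134 with no filter). TWSG1, NBL1 and BMP1 were named after their values were seen: TWSG1 helps chordin bind BMPs, NBL1 is a BMP antagonist of the DAN family, and BMP1 is a protease that cuts chordin. Their log2 fold changes were -0.18, -0.19 and -0.18, with edgeR adjusted p of 0.0446, 0.0484 and 0.0397. TWSG1 lost its call without shControl replicate 2 (-0.074, edgeR adjusted p 0.635) or either shTFE3 library (0.187 and 0.45), by DESeq2 (0.105), with upper-quartile factors (0.0504), with a minimum of 50 counts (0.0521) and with no filter (0.42). NBL1 and BMP1 lost theirs without shControl replicate 1 (0.433 and 0.445), with shTFE3 replicate 1 left out (0.231 and 0.267), likewise for replicate 2 (0.2 and 0.174), by DESeq2 (0.207 and 0.12), with no filter (0.25 and 0.278) and with a replicate block (0.0695 and 0.0573). NBL1 also lost it with RLE factors (0.0507) and with a minimum of 50 counts (0.0504). The number that fell was 4 and 5 without shControl replicates 1 and 2, 2 and 3 without shTFE3 replicates 1 and 2, 3 by DESeq2 and 2 with no filter.

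**Figure D2:**
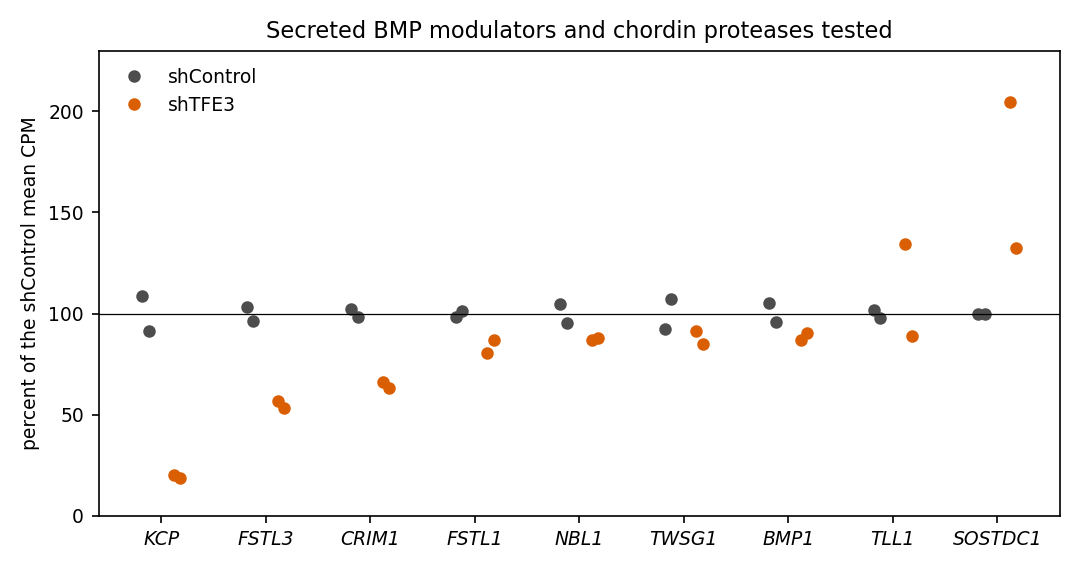
Level of each tested gene listed as a BMP modulator or chordin-cutting protease in every library, as a percentage of its mean CPM in shControl, with 1 point per library. KCP, FSTL3 and CRIM1 lie well below 100 in both shTFE3 libraries, while TLL1 has 1 shTFE3 library on either side of the controls.

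The classical antagonists were hardly detected. Noggin (NOG) had 6 and 4 counts in shControl against 9 and 9 in shTFE3, gremlin 1 (GREM1) 7 and 8 against 7 and 7, and follistatin (FST) 3 and 3 against 5 and 3. Chordin (CHRD) had at most 1 count in any library. These genes were below the filter and were not tested. On the scale of CPM per kb of exon, KCP made up 3.32% and 2.79% of the summed level of all listed modulators without the proteases in shControl and 0.832% and 0.798% in shTFE3. CRIM1 held the largest share in shControl, 34.7% and 33.2%, and TWSG1 in shTFE3, 33.7% and 32.5%.

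Of the ligands among the 10 genes, BMP4 was lower in shTFE3 and BMP2 overlapped. BMP4 (ENSG00000125378, chromosome 14, 53949736 to 53958761, minus strand), known for its part in kidney and ureter development, had 34 and 35 counts in shControl against 12 and 18 in shTFE3. These were 1.99 and 2.05 CPM against 0.668 and 1.01 CPM, with both knockdown libraries below the controls and farther apart from each other. The log2 fold change was -1.26 (SE 0.31), and lay between -1.59 and -0.99 with 1 library left out. With these few counts BMP4 was not called without either one of the shTFE3 libraries, by DESeq2 or with no filter on low counts. BMP2 (ENSG00000125845, chromosome 20, 6767664 to 6780280, plus strand), an osteogenic ligand, had 30 and 36 counts in shControl against 33 and 43 in shTFE3. Its levels of 1.76 and 2.11 CPM against 1.84 and 2.42 CPM overlapped, with a log2 fold change of 0.13 (SE 0.25) that became -0.077 without shTFE3 replicate 2.

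BMP5, the listed ligand with most reads, fell. It had 857 and 960 counts in shControl against 683 and 681 in shTFE3, 53.3 ± 4.32 against 38.1 ± 0.19 CPM (SD, n = 2). The log2 fold change was -0.48 (edgeR SE 0.077, adjusted p 3.87e-05), and the adjusted p was 0.0548 without shTFE3 replicate 2 and 0.0768 with no filter. BMP5 held 88.8% and 88.4% of the summed CPM per kb of the 14 listed ligands in shControl and 86.7% and 86.3% in shTFE3. The ligands summed to 14.3 and 16.1 CPM per kb in shControl against 11.1 and 11.2 in shTFE3. BMP7 had 0 counts in every library. Of the 12 ligands that are not among the 10 genes, BMP5 and BMP8A passed the filter. BMP8A, at 8 and 10 counts against 14 and 6, has a near-identical copy in BMP8B, so that its own level is uncertain.

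Of 8 tested receptors and co-receptors 1 fell and 0 rose (median log2 fold change -0.092). This was 12.5% called lower, near the 12.9% of all tested genes, where 23.3% were called in either direction. Nothing is read from the count. At an unadjusted p under 0.05 the only other gene was BMPR1B, also lower. ACVR1, a type I receptor for BMPs, fell from 48.2 ± 0.122 to 37.9 ± 2.11 CPM (SD, n = 2), which is a log2 fold change of -0.35 (edgeR SE 0.076, adjusted p 0.00125). Its adjusted p was 0.0776 without shTFE3 replicate 2 and 0.0889 with no filter. BMPR1B, another type I receptor, had 148 and 121 counts against 113 and 104 and a log2 fold change of -0.38 (edgeR SE 0.15, adjusted p 0.0694). It passed without shControl replicate 2 (-0.52, edgeR adjusted p 0.0428). BMPR1A, at -0.12 (edgeR adjusted p 0.238), and the co-receptor RGMB, at -0.18 (edgeR adjusted p 0.345), did not pass.

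BAMBI (ENSG00000095739, chromosome 10, 28677342 to 28682939, plus strand), a membrane pseudoreceptor that lacks a kinase and blocks receptor signalling, had few counts but passed the filter. It had 13 and 15 counts in shControl against 9 and 11 in shTFE3, 0.762 and 0.881 CPM against 0.501 and 0.618 CPM. The groups did not overlap, but the log2 fold change of -0.55 had an SE of 0.41.

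The inhibitory SMADs were nearly level. SMAD6 (ENSG00000137834, chromosome 15, 66702228 to 66782848, plus strand), which inhibits mainly the BMP branch, had 307 and 308 counts in shControl against 304 and 341 in shTFE3. Its levels were 18.0 and 18.1 CPM against 16.9 and 19.2 CPM, so that the controls lay between the knockdown libraries, and the log2 fold change was -4.8e-05 (SE 0.10). SMAD7 (ENSG00000101665, chromosome 18, 48919853 to 48952052, minus strand), which inhibits both the BMP and the TGF-beta branch, had 461 and 471 counts against 537 and 461. Its levels were 27.0 and 27.6 CPM against 29.9 and 25.9 CPM, again with the controls between the knockdown libraries, and the log2 fold change was 0.03 (SE 0.089). For both genes the sign changed with the knockdown library left out: SMAD6 had 0.089 and -0.094 and SMAD7 -0.076 and 0.13 without shTFE3 replicates 1 and 2.

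SMAD9 (ENSG00000120693, chromosome 13, 36844831 to 36920765, minus strand), a receptor-activated SMAD that is itself a BMP target, had 76 and 68 counts in shControl against 100 and 97 in shTFE3. Its levels of 4.46 and 3.99 CPM against 5.56 and 5.45 CPM did not overlap. Their log2 fold change of 0.38 (SE 0.17) lay, with 1 library left out, between 0.30 and 0.46. SMAD9-IT1, inside an intron of SMAD9 on the same strand, had at most 4 counts in any library.

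Of 9 tested inhibitors of SMAD signalling beside SMAD6, SMAD7 and BAMBI, 3 rose and 0 fell, with a median log2 fold change of -0.023. This was 33.3% called, all higher, where 23.3% of all tested genes were called in either direction and 10.3% higher. The 3 were also the only ones at an unadjusted p under 0.05. SKI, a nuclear co-repressor that binds SMADs, rose from 68.5 ± 1.72 to 104 ± 3.70 CPM (SD, n = 2), which is a log2 fold change of 0.60 (edgeR SE 0.064, adjusted p 1.21e-07). TOB1, an antiproliferative protein that binds BMP SMADs, rose by 0.47 on the log2 scale (edgeR SE 0.075, adjusted p 4.72e-05, and 0.0504 with no filter). SKIL, a relative of SKI, rose by 0.25 (edgeR SE 0.071, adjusted p 0.0098). It did not pass without shControl replicate 1 (0.0769), without shTFE3 replicate 1 (0.196), by DESeq2 (0.0552) or with no filter (0.27). FKBP1A, which holds type I receptors inactive, had a log2 fold change of -0.085 (edgeR adjusted p 0.322).

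Of 8 tested signal carriers and cofactors beside SMAD9, 2 rose and 0 fell (median 0.14), and RUNX2 was the other one at an unadjusted p under 0.05, also higher. The share called was 25%, all higher, where 23.3% of all tested genes were called in either direction and 10.3% higher. SMAD3, the carrier of the TGF-beta branch, rose from 142 ± 3.56 to 175 ± 2.74 CPM (SD, n = 2), which is a log2 fold change of 0.30 (edgeR SE 0.057, adjusted p 0.000282, 0.0509 without shTFE3 replicate 2 and 0.0673 with no filter). RUNX1, a SMAD partner, rose by 0.26 (edgeR SE 0.064, adjusted p 0.0033). Its adjusted p was 0.0607 without shControl replicate 1, 0.0746 and 0.0694 without shTFE3 replicates 1 and 2, and 0.0928 with no filter. RUNX2, the osteoblast factor, had a log2 fold change of 0.27 (edgeR adjusted p 0.0858). SMAD1 and SMAD5, the main carriers of BMP signals, and SMAD4 did not pass, with log2 fold changes of 0.18, 0.11 and 0.07 (edgeR adjusted p 0.155, 0.245 and 0.556).

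**Figure D3:**
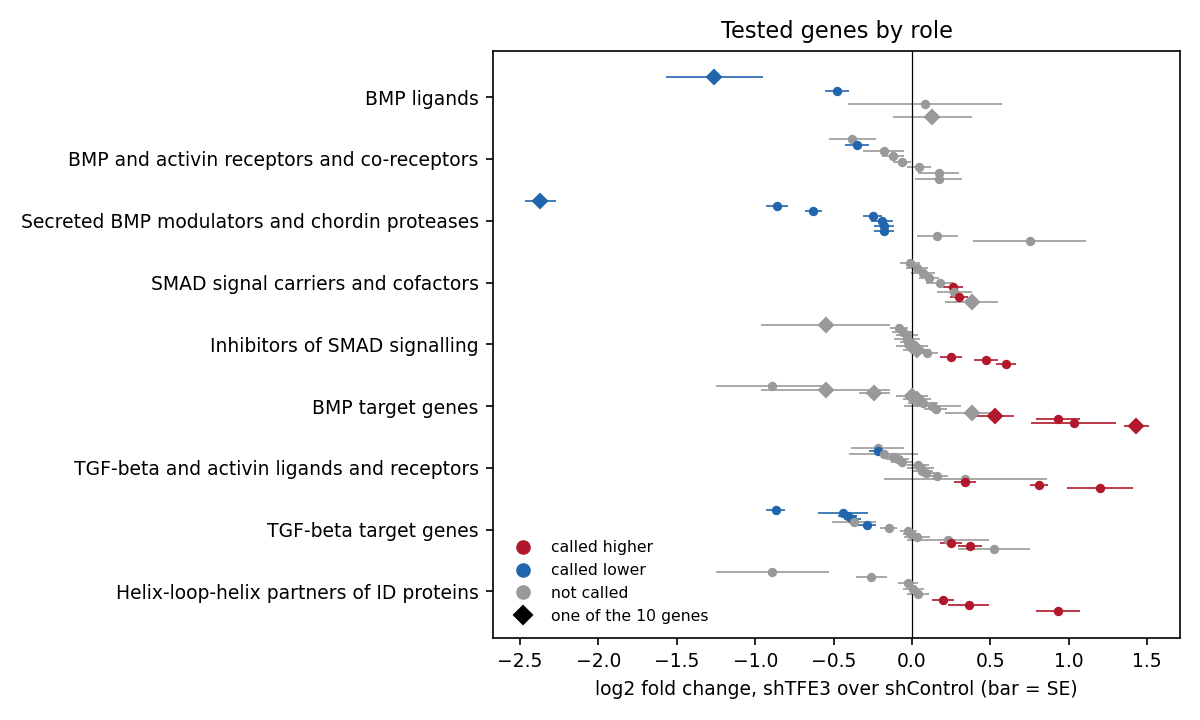
Log2 fold change of shTFE3 over shControl for every tested gene of the 9 pathway lists, 1 row per list, with bars for the SE, diamonds for the 10 genes and colour for the call. The listed BMP modulators and chordin proteases lie mostly below 0, with KCP at -2.37, and BMP targets run from below 0 up to ID1 at 1.43.

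The ID genes, the best known readouts of BMP signalling, differed in size and direction, and the slightly lower level of ID2 was not called. ID1 (ENSG00000125968, chromosome 20, 31605283 to 31606515, plus strand) had 413 and 381 counts in shControl against 1133 and 1105 in shTFE3. Its levels were 24.2 and 22.4 CPM against 63.0 and 62.1 CPM, with the 2 libraries of each group close together and the groups far apart. The log2 fold change was 1.43 (SE 0.078), a level 2.69-fold higher, and lay between 1.37 and 1.48 with 1 library left out. In the authors' deposited table ID1 had a log2 fold change of 1.43 with an SE of 0.11. KCP and ID1 were the 2 of the 10 genes in the authors' deposited table, which holds 546 genes.

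ID3 (ENSG00000117318, chromosome 1, 23557918 to 23559794, minus strand), which like ID1 restrains differentiation factors, was higher to a smaller extent. It had 177 and 189 counts in shControl against 248 and 306 in shTFE3, 10.4 and 11.1 CPM against 13.8 and 17.2 CPM. The groups did not overlap, and the knockdown libraries lay farther apart than the controls. At 0.53 (SE 0.12) the log2 fold change of ID3 depended on the library left out, being 0.36 without shTFE3 replicate 2 and 0.68 without shTFE3 replicate 1. ID3 was not called without shTFE3 replicate 2, by DESeq2 or with no filter on low counts.

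ID2 (ENSG00000115738, chromosome 2, 8678845 to 8684453, plus strand), which also binds the retinoblastoma protein, lay in the other direction. It had 347 and 345 counts in shControl against 319 and 297 in shTFE3, 20.3 and 20.3 CPM against 17.8 and 16.7 CPM. Both knockdown libraries were slightly below the controls, with a log2 fold change of -0.24 (SE 0.097), and ID2 was not called in the fit over all genes. ID2-AS1, an antisense RNA that shares 38 exon bases with ID2, had 93 and 107 counts against 75 and 65 and a log2 fold change of -0.58 (edgeR SE 0.17, adjusted p 0.0144). Without the strand setting, reads of the 2 genes within these 38 bases cannot be told apart. ID2-AS1 lost its call without shControl replicate 2 (0.156), without shTFE3 replicates 1 (0.0856) and 2 (0.165), by DESeq2 (0.222) and with no filter (0.148). ID4 had 1 count in 1 library and 0 in the others.

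On the scale of CPM per kb of exon the ID genes together came to 34.7 and 33.5 in shControl and 66.9 and 67.5 in shTFE3. ID1 held 56.7% and 54.2% of this sum in shControl and 76.5% and 74.6% in shTFE3. The share of ID2 was 26.6% and 27.4% in shControl against 12% and 11.2% in shTFE3, and that of ID3 16.7% and 18.4% against 11.5% and 14.2%. The share of ID3 was thus lower in shTFE3 although its level was higher.

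**Figure D4:**
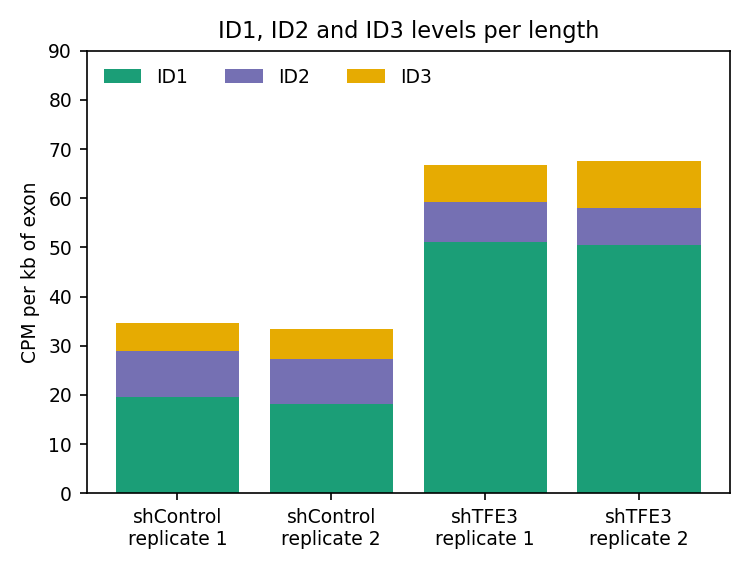
Levels of ID1, ID2 and ID3 in each library as stacked bars, in CPM per kb of exon. The bars of the shTFE3 libraries, at 66.9 and 67.5 in total, are taller almost wholly by their ID1 part.

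The genes most like ID1, by the same distance as for KCP, were KCNAB2 (0.111), ZC3H12A (0.122) and MSC (0.141). KCNAB2 encodes a potassium channel subunit and ZC3H12A an RNase that degrades cytokine mRNAs. MSC (musculin) is itself a helix-loop-helix repressor. MSC went from 48.7 ± 2.86 to 119 ± 3.67 CPM and KCNAB2 from 6.01 ± 0.617 to 15.5 ± 0.80 CPM (SD, n = 2). The log2 fold changes, likewise without a test, were 1.43 for ZC3H12A, 1.37 for KCNAB2 and 1.29 for MSC.

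Of 6 tested BMP targets beyond the 10 genes, 2 rose and 0 fell (median 0.14), which was 33.3% called. Of all tested genes 23.3% were called in either direction and 10.3% higher. HES1, a repressor downstream of both Notch and BMP signals, rose from 5.37 ± 0.544 to 10.3 ± 0.191 CPM (SD, n = 2), which is a log2 fold change of 0.93 (edgeR SE 0.14, adjusted p 1.98e-05, and 0.053 with no filter). ATOH8, a helix-loop-helix factor induced by BMPs, had 19 and 22 counts in shControl against 40 and 48 in shTFE3, a log2 fold change of 1.03 (edgeR SE 0.27, adjusted p 0.00613). ATOH8 did not pass without shControl replicate 1 (0.0636), without shTFE3 replicates 1 (0.0531) and 2 (0.116), by DESeq2 (0.174) or with no filter (0.11). HEY1, a relative of HES1 named after its values were seen, had 21 and 25 counts against 9 and 17. Its log2 fold change of -0.89 (edgeR SE 0.36, adjusted p 0.0792) did not pass. STC1, a secreted glycoprotein also named later, did not pass either, with a log2 fold change of 0.15 (edgeR adjusted p 0.143, unadjusted 0.0491). MSX2, DLX5 and HAMP had 0 counts in every library.

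Among 8 tested helix-loop-helix factors listed as possible partners of ID proteins 3 rose and 0 fell (median 0.021), HES1 being counted here again. This was 37.5% called, all higher, where 23.3% of all tested genes were called in either direction and 10.3% higher. The list also held factors outside the E proteins, such as MXD1 and USF1, and binding to ID proteins was not examined. The E proteins, which ID proteins bind most tightly, did not pass: TCF3 had a log2 fold change of 0.0075 (edgeR adjusted p 0.955) and TCF4 of -0.26 (edgeR adjusted p 0.0715, unadjusted 0.019). HEY1, listed here too, was the other gene at an unadjusted p under 0.05 that was not called. MXD1, a partner of MAX, rose by 0.36 (edgeR adjusted p 0.0395) and USF1, an E-box factor, by 0.20 (edgeR adjusted p 0.0437). Each of these 2 lost its call with any 1 library left out, with adjusted p of 0.0971 to 0.182 for MXD1 and 0.0811 to 0.343 for USF1, by DESeq2 (0.327 and 0.205) and with no filter (0.155 and 0.214). USF1 also lost it with a replicate block (0.0669).

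Compared per length over the 10 genes, ID1 had the highest level in both groups, 18.9 CPM per kb in shControl and 50.8 in shTFE3. In shControl it was followed by ID2 (9.21), ID3 (5.97), KCP (5.81) and SMAD7 (5.43). The ranges of ID3 and KCP overlapped there, as did those of KCP and SMAD7. SMAD6 (2.11), SMAD9 (0.738), BMP4 (0.657), BMP2 (0.538) and BAMBI (0.355) came next, with ranges of 2 libraries that did not touch. BMP4 had 34 and 35 counts there and BMP2 30 and 36, so their order is not resolved by these counts. In shTFE3 KCP stood at 1.12, below SMAD6 (2.11) and above SMAD9 (0.963). ID3 (8.63) and ID2 (7.81) overlapped there, as did BMP4 (0.272) and BAMBI (0.242). Exon lengths were those of GENCODE 29, 8259 bases for KCP. The authors' deposited table gives 12525 bases for KCP, with which its level would be 3.83 CPM per kb in shControl and 0.739 in shTFE3. These values are below SMAD7 in shControl and below SMAD9 in shTFE3. SMAD7 and SMAD9 are not in that table and kept their GENCODE 29 lengths, so this order mixes annotations.

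The TGF-beta and activin branch, which KCP is known to dampen, went both ways. Of 15 tested ligands, receptors and latency proteins 3 rose and 1 fell (median 0.054), which was 26.7% called, near the 23.3% of all tested genes. INHBA, the subunit of activin A, rose from 259 ± 1.11 to 454 ± 26.3 CPM (SD, n = 2), which is a log2 fold change of 0.81 (edgeR SE 0.056, adjusted p 8.46e-11). LTBP1, which stores latent TGF-beta in the matrix, had 46 and 47 counts in shControl against 137 and 87 in shTFE3, a log2 fold change of 1.20 (edgeR SE 0.21, adjusted p 0.000117, and 0.159 with no filter). GDF15, a stress-induced ligand, rose by 0.34 (edgeR adjusted p 0.000729), and LTBP4 fell by 0.22 (edgeR adjusted p 0.00503). GDF15 lost its call without shControl replicate 2 (0.0805), without shTFE3 replicates 1 (0.125) and 2 (0.148) and with no filter (0.235). LTBP4 lost its call without shControl replicate 1 (0.0529), without shTFE3 replicate 2 (0.0897) and with no filter (0.0859).

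Of 14 tested TGF-beta targets 5 fell and 2 rose (median -0.084), which was 50% called against 23.3% of all tested genes. CCN1, a matrix signalling protein, had -0.38 (edgeR adjusted p 1.2e-05), KLF10 -0.41 (2.14e-05) and TSC22D1 -0.29 (0.000577). With no filter KLF10 and TSC22D1 had adjusted p of 0.0557 and 0.0667. SNAI2 and CCN2 were named after their values were seen. SNAI2, a transcription factor of epithelial-mesenchymal transition, fell by 0.44 (edgeR adjusted p 0.0498). It lost its call with any 1 library left out (0.128 to 0.226), by DESeq2 (0.386), with no filter (0.13), with RLE and upper-quartile factors (0.0507 and 0.0509) and with a replicate block (0.0515). CCN2, a relative of CCN1, rose by 0.37 (edgeR adjusted p 0.000674, 0.0508 without shTFE3 replicate 2 and 0.0634 with no filter), and SKIL, described above, was the other rise. COL1A1, also on the fibroblast list, had a log2 fold change of -0.37 (edgeR adjusted p 0.0554).

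Over all 9 lists, 112 genes were not among the 10, and 74 of them passed the filter. Of these 13 rose and 14 fell, with a median log2 fold change of 0.03 against 0.0015 for all genes tested. The share called was 36.5%, against 23.3% of all tested genes, and the lists were chosen with earlier results known. Among the markers, CDH6 (log2 fold change -0.55, edgeR adjusted p 5.95e-07) and KRT18 (-0.28, edgeR adjusted p 0.00191), both of renal epithelium, also fell. KRT18 had adjusted p of 0.0806 and 0.0679 without shTFE3 replicates 1 and 2 and 0.0932 with no filter, where CDH6 had 0.0815. KRT8 and VIM, of the same list, had log2 fold changes of -0.11 (edgeR adjusted p 0.142) and 0.14 (0.0545, and 0.0434 by DESeq2), and the endothelial PECAM1 and the fibroblast PDGFRB had 0.24 (0.445) and 0.14 (0.407). In these bulk libraries fewer cells with a transcript and less of it per cell cannot be told apart.

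**Figure D5:**
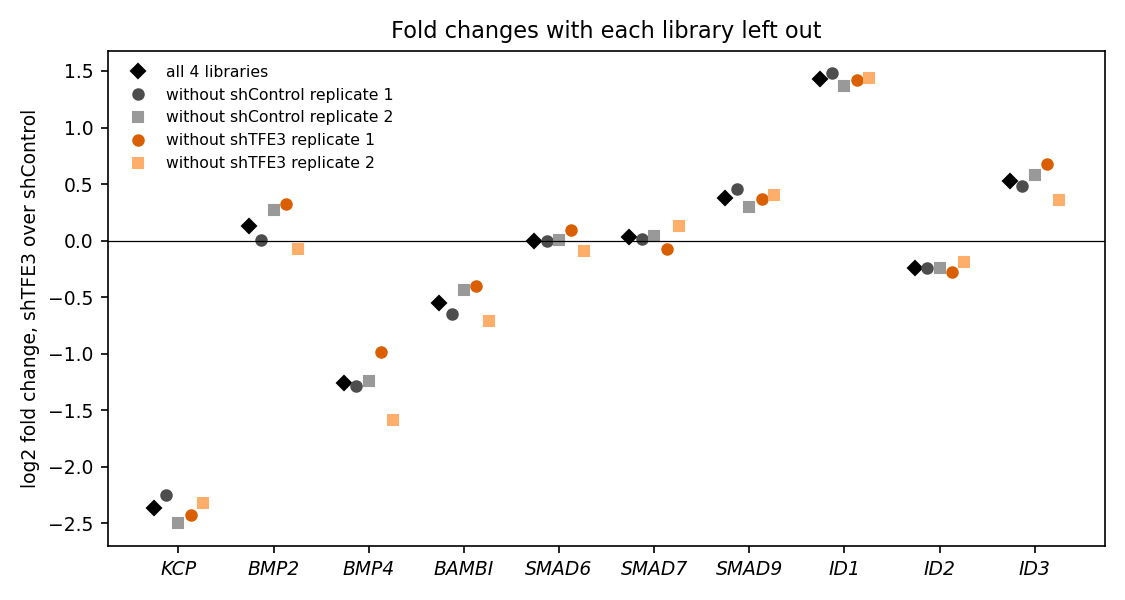
Log2 fold change of each of the 10 genes from all 4 libraries (diamonds) and with each library left out. KCP stays between -2.50 and -2.25 and ID1 between 1.37 and 1.48, while BMP2, SMAD6 and SMAD7 change sign.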

How the data were processed

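The authors deposited raw read counts per Ensembl gene for polyadenylated RNA sequenced as paired reads of 150 bases. Trim Galore, STAR, featureCounts, DESeq2 and build hg38 are named in the submitters' processing notes, while versions, annotation and the strand setting were not given in the sources used here. A second deposited table holds the authors' own comparison: mean normalized signal, log2 fold changes and SE, a test score, p-values and feature lengths.

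Groups came from sample titles. Counts were tested with edgeR 4.0.16 in R 4.3.3 (TMM, filterByExpr, group as the only term, quasi-likelihood test, Benjamini-Hochberg adjustment over all 15950 genes kept). Replicates varied by 4.16% beyond counting noise (2 residual degrees of freedom, 22.4 prior). Chi-square per degree of freedom between replicates came to 2.00 for shControl and 3.30 for shTFE3, above sampling noise, so neither pair was treated as copies of 1 library. The procedure was also run on simulated counts with 200 genes changed, fewer than were called in the data, and no result here rests on that run. Symbols came from a gene name table (61369 identifiers) and GENCODE 29 (149). The 10 genes and all lists were chosen with earlier results of these data known. Besides the 10, the text names TFE3, up to 4 genes of smallest p per list, the 3 genes nearest to KCP and to ID1, SLC36A1, and genes added after their values were seen (TWSG1, NBL1, BMP1, SOSTDC1, SMAD1, SMAD4, SMAD5, STC1, HEY1, TCF3, CCN2, SNAI2, genes overlapping the 10 and undetected genes). Alternatives were other scalings, filters, DESeq2 1.42.0, a replicate block and each library left out. Some genes of the lists are counted but not reported here by name.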

Additional observations from a re-analysis of the deposited data

How the results depend on the processing

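A minimum of 50 counts in 2 libraries left out 3 of the 10 genes. Over all genes, 1650 rose and 2059 fell. These counts were 104 and 280 with no filter on low counts and 752 and 1207 by DESeq2, and ranged from 367 to 1008 and from 676 to 1507 with 1 library left out. For the pathway genes outside the set, 13 up and 14 down became 2 and 4 with no filter, and 6 to 10 and 8 to 13 with 1 library left out. The cause was not tested. The replicate numbers are not said to mark a shared infection, and deviations of same-numbered libraries had a correlation of -0.0795 over 12183 genes. With the replicate number as a block, 1568 genes rose and 1990 fell, and 12 and 11 pathway genes. Fits with a block or without a library had 1 residual degree of freedom and prior degrees of freedom from 3.98 to infinite, so their counts are not on equal terms. Of 39 called genes outside the set that were followed through the fits, not all named here, 26 lost their call with no filter and 9 by DESeq2. Among the 39 are the genes nearest to KCP and to ID1, chosen by their values, so this tally is no measure of robustness. At these totals, differences in BAMBI, BMP2 and BMP4, with at most 43 counts, were the least precise.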
